A study of Mus musculus with 31 samples.

Results

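The liver is the main source of the plasma proteins of complement and coagulation, and 42 genes of these systems were followed across a panel of recombinant inbred mouse strains, the serpin inhibitors being left out. Members were taken by name, as the probes that the platform annotation gives to a single one of these genes. Of the 42 genes, 38 were measured by 40 of the 21765 probes with values, comprising 21 complement genes on 22 probes and 17 coagulation genes on 18 probes. C1s, C3, C8a and Cpb2 are not analysed here. Each of 31 BxD/TyJ strains, inbred lines that mix the genomes of the C57BL/6J and DBA/2J parents, contributed 1 two-colour glass array of whole liver. Its RNA was a pool of 3 male mice aged 8 weeks, and the reference on every array was a pool of 9 male C57BL/6J livers of the same age. On all arrays the red dye labelled the strain and the green dye the reference, and dyes were not exchanged. No treatment is named, so the 31 strains form 1 group.

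Complement is a cascade of plasma proteases that opsonizes and lyses targets. It is started by antibody through C1q, by sugars through the mannose-binding lectins, or by the alternative pathway, and it ends in a membrane pore built from C5 to C9. Coagulation is a second protease cascade, started by tissue factor with factor VII or by contact activation, in which factor X and its cofactor factor V turn prothrombin into thrombin. Hepatocytes make most of these proteins, whereas C1q comes mainly from macrophages, properdin from leukocytes, and factor VIII and von Willebrand factor from endothelium. In whole liver, fewer cells of a type and less RNA per cell cannot be told apart.

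All values are the authors' normalized log ratios, read as log2 of strain over reference. That direction is likely rather than stated: strain RNA carried the red dye, and by convention limma puts red above green. If the ratios were reference over strain, every sign below would turn, with higher read as lower and the order of means reversed, while SDs and correlations would stay. The log base is not given. A gene's mean over the 31 strains carries its standard error over strains, since no strain had another array. No C57BL/6J sample other than the reference is analysed here, so the test of a mean leaves out the spread of the control, and a dye bias at a probe would shift its mean. Arrays of strains 23, 28, 40 and 42 stood apart, with median correlations over all probes of 0.24, 0.37, 0.06 and 0.33 with the other arrays, against 0.57 to 0.79 for the remaining 27. Probes at every 8th place of the array had a median mean of -0.58, against 0.04 for the others. The members C8b, C9, Mbl1, F3, F5 and F9 lay at such places. Probes of the same gene rarely varied together: over the 902 genes with 2 probes the median correlation across strains was 0.011. Probes with neighbouring numbers had a mean correlation of 0.10. Whether the annotation lists every feature in the order of the values could not be tested beyond this, so a gene name below stands for the probe that the annotation gives to it. Place correction below means subtraction, on each array, of the median of all probes at the same place of 8.

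Promoters are shown for 3 of the pairs of members whose levels varied together, C6 with Klkb1, F2 with F12, and C4bp with Pros1. These pairs were picked after their values were seen, and others described further on had correlations as high. The 250 bases before the transcription start of each are printed from RefSeq (GRCm38.p6), 5′ to 3′ on the strand of the gene, to show the promoters of genes that moved together. Capitals mark matches to the motifs searched.
C6: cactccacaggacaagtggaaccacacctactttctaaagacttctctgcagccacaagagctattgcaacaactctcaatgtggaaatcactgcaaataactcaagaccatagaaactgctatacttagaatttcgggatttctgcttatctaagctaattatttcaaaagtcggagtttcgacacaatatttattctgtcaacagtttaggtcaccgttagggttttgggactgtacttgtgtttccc
Klkb1: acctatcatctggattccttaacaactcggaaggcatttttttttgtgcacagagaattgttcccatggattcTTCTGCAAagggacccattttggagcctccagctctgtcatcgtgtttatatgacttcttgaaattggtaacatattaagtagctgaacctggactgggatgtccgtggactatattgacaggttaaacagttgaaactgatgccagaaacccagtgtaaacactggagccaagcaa
F2: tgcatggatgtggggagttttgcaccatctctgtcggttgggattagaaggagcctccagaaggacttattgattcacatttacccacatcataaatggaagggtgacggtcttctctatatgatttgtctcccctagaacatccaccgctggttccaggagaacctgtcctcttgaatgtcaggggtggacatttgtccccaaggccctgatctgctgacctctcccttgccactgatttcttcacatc
F12: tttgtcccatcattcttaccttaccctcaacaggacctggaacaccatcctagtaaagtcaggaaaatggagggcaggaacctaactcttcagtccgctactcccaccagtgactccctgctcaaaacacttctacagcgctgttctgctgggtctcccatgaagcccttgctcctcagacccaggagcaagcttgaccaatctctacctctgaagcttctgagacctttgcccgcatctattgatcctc
C4bp: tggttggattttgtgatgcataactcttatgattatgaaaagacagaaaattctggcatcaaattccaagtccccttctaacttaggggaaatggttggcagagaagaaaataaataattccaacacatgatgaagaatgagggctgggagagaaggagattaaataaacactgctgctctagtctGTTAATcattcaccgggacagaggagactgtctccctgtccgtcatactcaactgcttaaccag
Pros1: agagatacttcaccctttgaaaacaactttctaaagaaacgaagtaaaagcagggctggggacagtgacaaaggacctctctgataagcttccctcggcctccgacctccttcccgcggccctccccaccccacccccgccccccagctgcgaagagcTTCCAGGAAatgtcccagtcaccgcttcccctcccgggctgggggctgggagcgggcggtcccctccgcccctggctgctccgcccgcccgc
The windows lie at chr15:4726960-4727209 (plus strand) for C6, chr8:45294836-45295085 (minus) for Klkb1, chr2:91636458-91636707 (minus) for F2, chr13:55426805-55427054 (minus) for F12, chr1:130661619-130661868 (minus) for C4bp and chr16:62854057-62854306 (plus) for Pros1. Motifs were searched by exact letters on both strands. They were GTTAAT, the core of the site of HNF1, TTGCNNAA for C/EBP factors, TTCCNGGAA for STAT factors, and CAAAGTCCA for HNF4, all of them factors with known roles in liver transcription or the acute phase. The C4bp window held GTTAAT at 64 to 59 bases before the start. The Klkb1 window held the C/EBP letters on the opposite strand, at 177 to 170 bases before the start, and the Pros1 window held the palindromic STAT letters at 92 to 84 bases. The windows of C6, F2 and F12 held none of these letters, so no pair shared a match.

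RefSeq windows were matched for 27 of the 38 members, with 28 windows in all. GTTAAT was present in 8 of the 28, those of C1ra, C4bp, C8b, Cfp, F13b, Hc, Proz and Vtn, against 6.43% of all 32851 windows of the same length. The C/EBP letters were present in 4 (C9, F11, F9 and Klkb1), against 9.56% of all windows. The STAT letters were present in 1 member window, against 0.913%, and the HNF4 letters in none, against 0.384%. These shares are a description, and the absence of a match says only that these exact letters are not in the window.

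Complement probes lay mostly above the reference. By limma's moderated test of each probe's mean against 0 (two-sided, Benjamini-Hochberg over all 21765 probes), 17 of 22 complement probes passed, 13 of them higher and 4 lower. This share is close to the 75% of all probes that passed. The share that was higher was 37.4% over all probes and 59.1% over the complement probes, and the share that was lower was 37.6% and 18.2%. With the ratio turned, these become 59.1% lower and 18.2% higher. The median of the complement means was 0.28, against 0.001 over all probes. With the mean required to exceed 0.2 in size, 10 complement probes were higher and 2 lower, where 14.6% and 18.6% of all probes were.

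**Figure D1:**
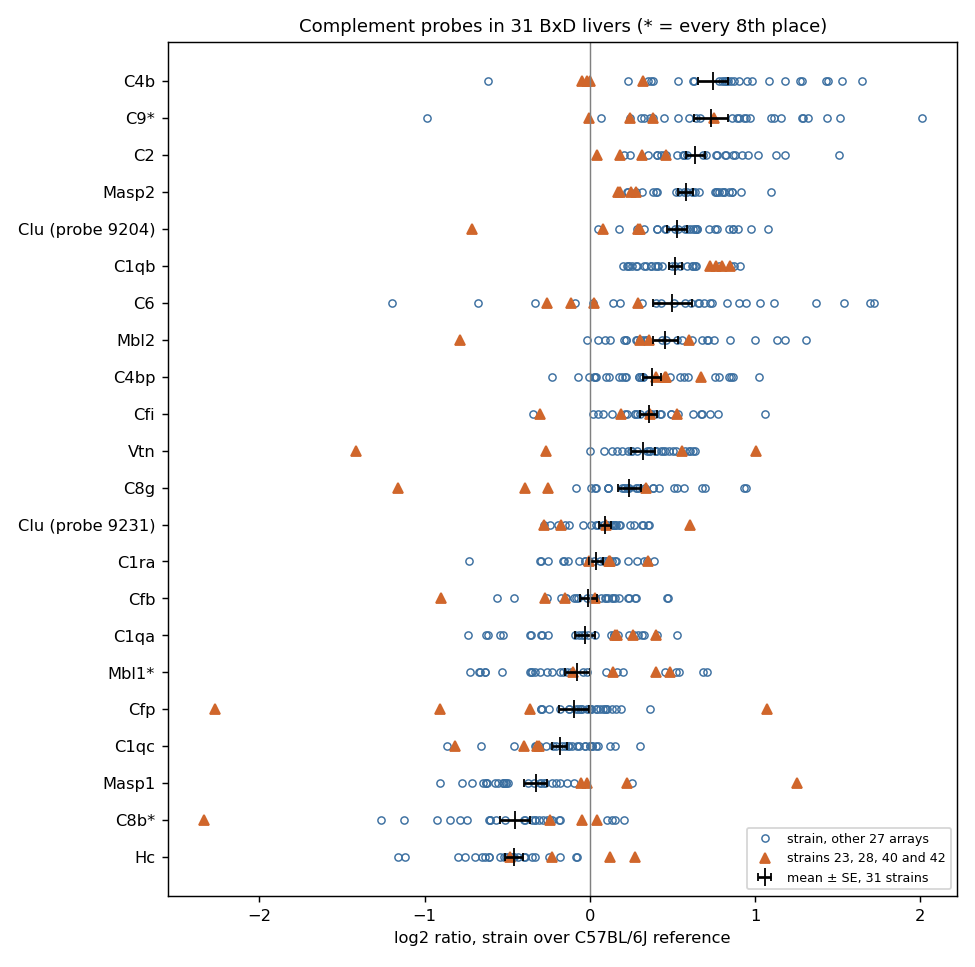
Log2 ratio of strain over reference for the 22 complement probes, ordered by mean. Circles and triangles are single strains (triangles: strains 23, 28, 40 and 42), black marks are the mean with its standard error over 31 strains, and asterisks mark every 8th places. C4b has the highest mean (0.75) and Hc the lowest (-0.46), and the strains spread most widely for C6 (SD 0.66).

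In the classical pathway, 3 of 6 probes were higher, 1 was lower and 2 did not pass. C4b, the fourth component that is cleaved to open the classical and lectin pathways, ranged from -0.62 in strain 13 through a median of 0.82 to 1.65 in strain 16. Its mean was 0.75 ± 0.09 (SE, n = 31; limma adjusted p = 2.5e-09), a 1.68-fold difference, and 28 of 31 strains were above 0. All 31 strains were above 0 for C2, the protease that pairs with C4b in the C3 convertase, from 0.05 in strain 40 through a median of 0.57 to 1.51 in strain 39, with a mean of 0.64 ± 0.06. Over all probes, 3.6% were above 0 in every strain.

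The 3 chains of C1q, the recognition protein that binds antibody, did not share a level. C1qb was above 0 in all 31 strains, between 0.20 in strain 22 and 0.91 in strain 2 (mean 0.52 ± 0.04, adjusted p = 1.4e-13), and without the 4 arrays its mean was 0.48. C1qc was lower, with a median of -0.13 and a range from -0.87 in strain 22 to 0.30 in strain 21 (mean -0.18 ± 0.05). C1qa spread around 0, from -0.74 in strain 9 to 0.53 in strain 27, with 16 strains above 0 and a mean of -0.03 ± 0.06 that did not pass. C1ra, a protease of the C1 complex, had a mean of 0.04 ± 0.04 and did not pass either.

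In the lectin pathway the 2 proteases went opposite ways. Masp2, which cleaves C4 and C2, was above 0 in all 31 strains, from 0.17 in strain 40 to 1.10 in strain 32 (median 0.62, mean 0.58 ± 0.05). Masp1, which activates Masp2, was lower, from -0.90 in strain 5 through a median of -0.38 to 1.25 in strain 28 (mean -0.33 ± 0.07, adjusted p = 6.9e-05). Only strains 23, 28 and 38 were above 0 for Masp1, and without the 4 arrays its SD went from 0.40 to 0.25. Of the mannose-binding lectins, Mbl2 was higher at 0.46 ± 0.07, from -0.79 in strain 40 to 1.31 in strain 5. Mbl1, at an every 8th place, had a mean of -0.08 ± 0.08 that did not pass and turned to 0.50 after place correction, so its direction cannot be given.

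Neither measured member of the alternative pathway passed. Cfb, the protease of the alternative C3 convertase, had a mean of -0.01 ± 0.05, between -0.90 in strain 42 and 0.47 in strain 12. Cfp, which is properdin, the stabilizer of that convertase, had a mean of -0.10 ± 0.09. Its extremes were 2 of the arrays that stood apart, -2.27 in strain 40 and 1.07 in strain 28, and without the 4 arrays its SD fell from 0.50 to 0.16.

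All 5 probes of the terminal pathway passed, 3 higher and 2 lower. C9, which polymerizes into the pore, ranged from -0.99 in strain 38 through a median of 0.75 to 2.01 in strain 5, with a mean of 0.73 ± 0.10, and lay at an every 8th place (1.31 after correction). C6, which joins C5b at the start of pore assembly, had the widest spread of all members, from -1.20 in strain 38 and -0.68 in strain 39 to 1.70 in strain 6 and 1.72 in strain 16. The distance between its lowest and highest strain was 7.56-fold. Its median was 0.58 and its mean 0.50 ± 0.12 (adjusted p = 0.00016), and its SD of 0.66 was 0.67 without the 4 arrays.

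C8g, the lipocalin-like chain of C8, had a mean of 0.24 ± 0.07, with strains 42, 40 and 23 lowest at -1.16, -0.39 and -0.26. C8b, the chain that binds C5b-7, was at -0.45 ± 0.09, with a lowest value of -2.34 in strain 23, but after place correction its mean was 0.12 and did not pass. Hc encodes C5, for which DBA/2J is known to carry a loss-of-function allele. Hc was below 0 in 29 of 31 strains, from -1.16 in strain 36 and -1.12 in strain 34 through a median of -0.47 to 0.12 in strain 28 and 0.27 in strain 40. Its mean was -0.46 ± 0.05 (adjusted p = 1.3e-09), a 1.37-fold lower level. The best split of its sorted strains, with at least 6 strains on each side, took 53.7% of its variance. This was below the median of 62.7% over all probes. Groups of fewer than 6 strains could not be found in this way.

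All 5 regulator probes were higher. C4bp, which binds C4b and serves as cofactor for its cleavage, ranged from -0.23 in strain 21 through a median of 0.32 to 1.03 in strain 9 (mean 0.38 ± 0.06). Cfi, the protease that cleaves C3b and C4b, had a mean of 0.36 ± 0.05, from -0.34 in strain 8 to 1.06 in strain 18. Vtn, vitronectin, which keeps the terminal complex out of membranes, had a mean of 0.32 ± 0.07 and 29 strains above 0. Its lowest and highest values came from arrays that stood apart, -1.42 in strain 40 and 1.00 in strain 23, and without the 4 arrays its SD went from 0.40 to 0.17.

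Clu, clusterin, a chaperone and inhibitor of the terminal complex, had a pair of probes that differed. Probe 9204 had a mean of 0.53 ± 0.06, from -0.71 in strain 40 to 1.08 in strain 18, whereas probe 9231 had a mean of 0.09 ± 0.04, from -0.28 in strain 28 to 0.61 in strain 40. Across strains they had r = -0.18 (rho 0.02; permutation p = 0.33 and 0.92). Strain 40 was thus lowest by one probe and highest by the other.

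Coagulation probes were also higher more often than lower. In the same limma test 14 of 18 passed, 10 higher and 4 lower, against 37.4% and 37.6% of all probes. With the ratio turned, 10 would be lower and 4 higher, Pros1 would have the lowest mean of all members and F3 the highest. The median of their means was 0.24. Beyond 0.2 in size, 8 were higher and 4 lower. Among the 34 members of both systems outside every 8th places, 22 were higher and 5 lower, against 41.5% and 31.5% of the 19233 probes there.

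**Figure D2:**
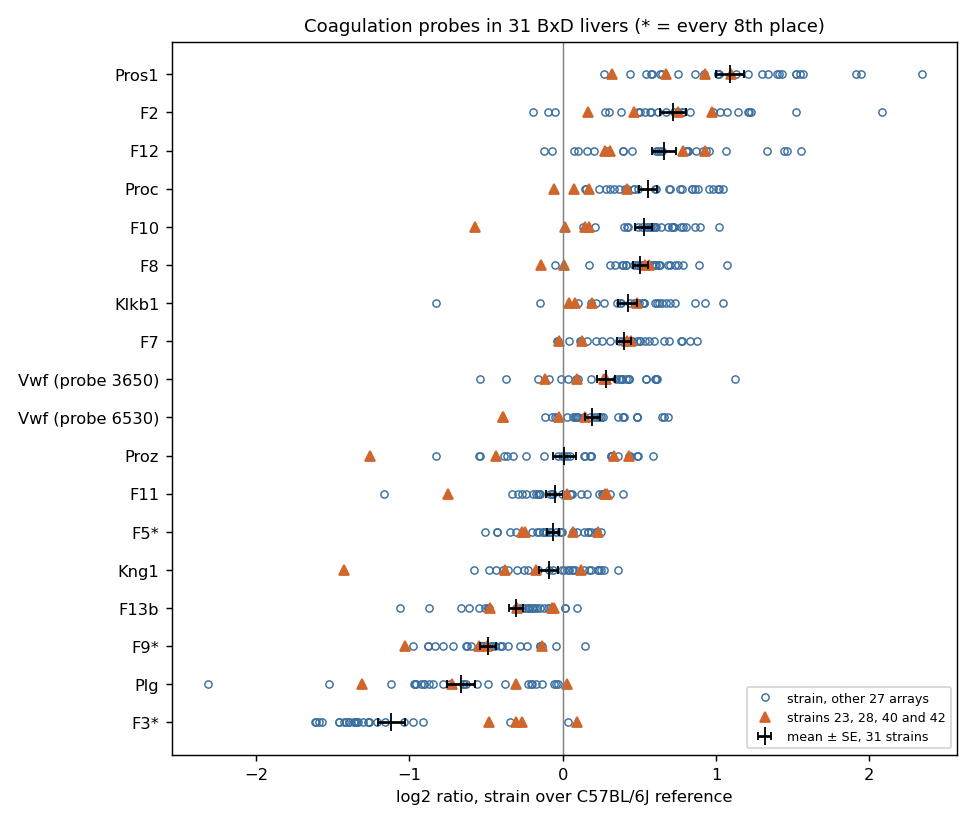
Log2 ratio of strain over reference for the 18 coagulation probes, ordered by mean. Symbols are as in the complement plot, with triangles for strains 23, 28, 40 and 42, and asterisks for every 8th places. Pros1 lies above 0 in all 31 strains, and F3 shows 6 strains between -0.48 and 0.10 apart from 25 lower ones.

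The anticoagulant vitamin K dependent proteins included the member with the highest mean. Pros1, protein S, the cofactor of activated protein C, was above 0 in all 31 strains, from 0.27 in strain 21 through a median of 1.02 to 2.34 in strain 2. Its mean was 1.09 ± 0.09 (adjusted p = 1.4e-13), a 2.13-fold difference. Proc, protein C itself, had a mean of 0.56 ± 0.06, from -0.05 in strain 40 to 1.04 in strain 18, with 30 strains above 0. Proz, protein Z, a cofactor for the inhibition of factor Xa, had a mean of 0.01 ± 0.08 and a wide range from -1.26 in strain 28 to 0.59 in strain 21.

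Of the tissue factor pathway, the ligand and its receptor lay on opposite sides of 0. F3, tissue factor, had the lowest mean of all members, -1.12 ± 0.09 (adjusted p = 4.3e-14), with a median of -1.34. Its strains fell into 25 between -1.62 and -0.91 and 6 that were higher, strains 40, 33, 42, 23, 38 and 28, between -0.48 and 0.10. This split took 85.4% of the variance, where the 90th percentile over all probes was 72.1%. A split needed at least 6 strains on each side, so the smaller group is at that limit. The 6 strains include the 4 whose arrays stood apart, and F3 lies at an every 8th place, where its mean became -0.54 after correction. The part of both in the split was not tested. F7, the protease that tissue factor binds, was higher at 0.40 ± 0.05, between -0.04 in strain 9 and 0.88 in strain 27, with 28 strains above 0.

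In the contact system 2 of 4 probes were higher. F12, Hageman factor, ranged from -0.12 in strain 24 through a median of 0.65 to 1.55 in strain 5 (mean 0.66 ± 0.08). Klkb1, plasma prekallikrein, which F12 activates, had a mean of 0.42 ± 0.06 with strains 38 and 39 lowest at -0.82 and -0.15 and strain 13 highest at 1.05. F11, the factor XI zymogen, and Kng1, the kininogen that carries both zymogens, had means of -0.05 ± 0.06 and -0.09 ± 0.06 that did not pass. Kng1 passed after place correction (-0.19, adjusted p = 0.0054), and its lowest value was -1.43 in strain 23.

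Among factors VIII and IX and their carrier, F8, the cofactor of factor IXa, was higher at 0.51 ± 0.05, from -0.14 in strain 40 through a median of 0.54 to 1.07 in strain 33. Vwf, which carries factor VIII, was higher by both its probes, at 0.28 ± 0.06 and 0.19 ± 0.05. The pair did not rank the strains alike (r = -0.13, rho -0.11; permutation p = 0.48 and 0.54): strain 16 was lowest by probe 3650 and strain 42 by probe 6530. F9, factor IX, was lower at -0.49 ± 0.05 with 30 strains below 0, but lies at an every 8th place and had 0.087 after correction, which did not pass.

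In the common pathway 2 probes were higher, 1 was lower and 1 did not pass. F2, prothrombin, ranged from -0.19 in strain 21 through a median of 0.73 to 2.08 in strain 22, with strain 5 next at 1.52. Its mean was 0.72 ± 0.09 (adjusted p = 1.2e-09), a 1.65-fold difference. F10, factor X, had a mean of 0.53 ± 0.06, with strains 40 and 28 lowest at -0.57 and 0.01, and an SD that went from 0.31 to 0.20 without the 4 arrays. F13b, the carrier chain of the crosslinking factor XIII, was lower at -0.30 ± 0.05, from -1.06 in strain 36 to 0.09 in strain 22. F5, the cofactor of factor Xa, was at -0.06 ± 0.04 and did not pass, and turned to 0.51 after place correction. Plg, plasminogen, the zymogen of the fibrin-degrading protease, was below 0 in 30 of 31 strains, from -2.32 in strain 15 and -1.52 in strain 5 through a median of -0.65 to 0.03 in strain 23. Its mean was -0.66 ± 0.09, a 1.58-fold lower level.

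Members varied more between strains than most probes. The median SD was 0.34 for complement and 0.32 for coagulation, against 0.24 over all probes. An SD above the median of all probes was found for 19 of 22 complement and 17 of 18 coagulation probes, and 5 and 4 of them were in the top 10% (SD of 0.45 or more). In complement these were C6, C9, C4b, Cfp and C8b, and in coagulation Plg, Pros1, F3 and F2. Without the 4 arrays the medians were 0.26 and 0.29, against 0.20. Intensities were not used here, so the SDs could not be set against signal.

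**Figure D3:**
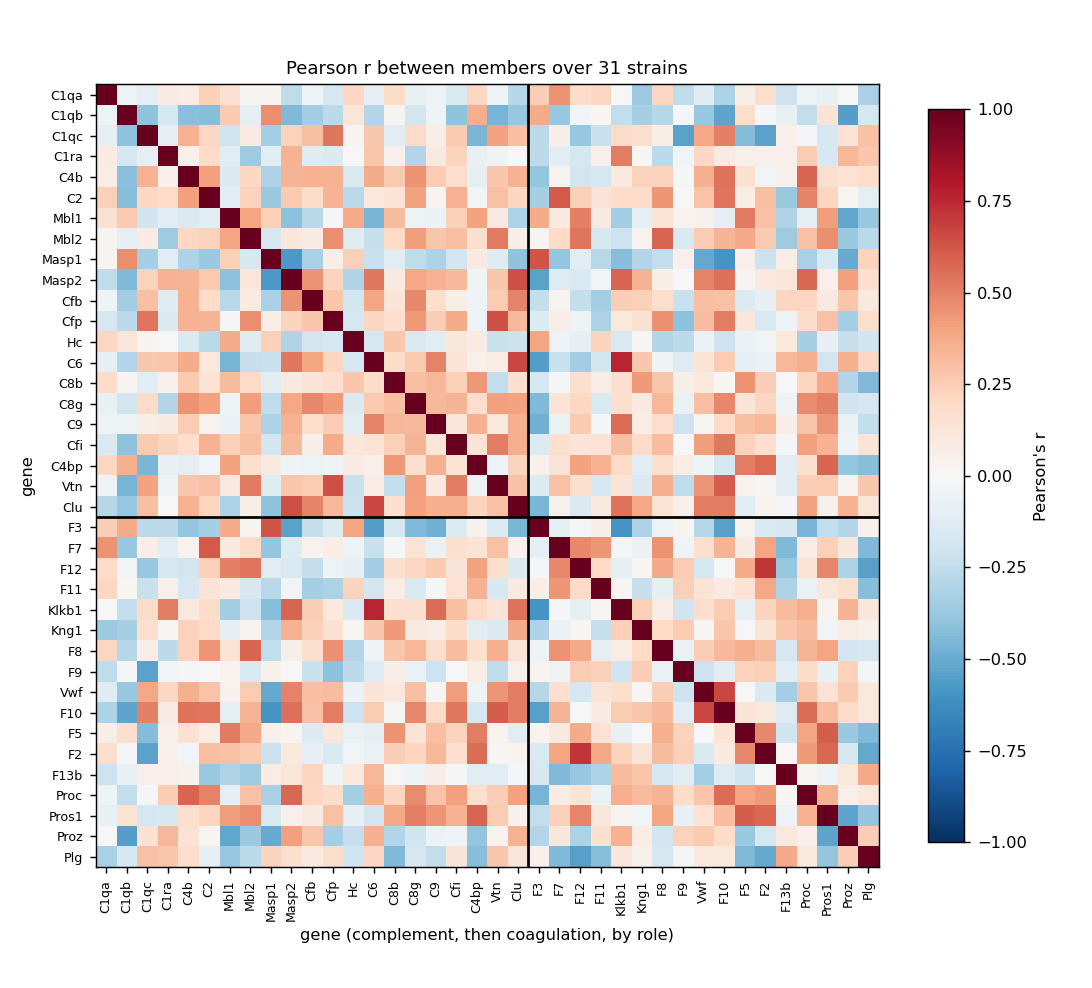
Pearson's r across the 31 strains for every pair of the 38 genes, complement first and coagulation after the black lines, ordered by role; red is positive and blue negative. Most cells are pale: the mean r is 0.09 within complement, 0.06 within coagulation and 0.06 between them, with C6 and Klkb1 the highest at 0.76.

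Members of each system showed little co-variation as a whole. The mean r over strains was 0.086 for the 210 pairs within complement, 0.062 for the 136 within coagulation and 0.058 for the 357 between them, against 0.0023 over all pairs of 15095 genes. An r of 0.5 or higher was reached by 5.41% of the 703 member pairs and by 3.44% of all gene pairs, and an r of -0.5 or lower by 2.28% and 3.14%. Within complement the share at 0.5 or higher was 3.33% and within coagulation 3.68%, close to that of all pairs, and between the systems it was 7.28%. Without the 4 arrays the members' shares were 4.69% against 1.61%, and 2.28% against 1.48%, with 4.76% within complement, 3.68% within coagulation and 5.04% between them at 0.5 or higher. The points share arrays and the reference, and these values are a description.

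A score was formed for each strain as the mean of the members, each centred on its median. For complement, strains 40 and 38 had the lowest scores, -0.42 and -0.31, and strain 18 the highest, 0.23. For coagulation, strain 28 was lowest at -0.23 and strain 22 highest at 0.32. The scores had r = 0.42 over the 31 strains, 0.40 without the 4 arrays, 0.52 after place correction and 0.32 with the first principal component of all probes removed. Strain 18 was highest in complement and next to highest in coagulation, with 15 of 21 and 12 of 17 genes above their medians. Strain 22 was highest in coagulation (15 of 17 genes above the median) but only 8th from the lowest in complement. In strain 28 complement was at 0.14 and coagulation at its lowest. Strain 40 held the lowest value of 9 of the 38 genes, and strain 38 had only 4 of 21 complement genes above the median. The array of strain 38 was not among the 4 left out. Its median correlation with the other arrays, 0.57, was the lowest of the remaining 27, with strain 8 next at 0.67.

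**Figure D4:**
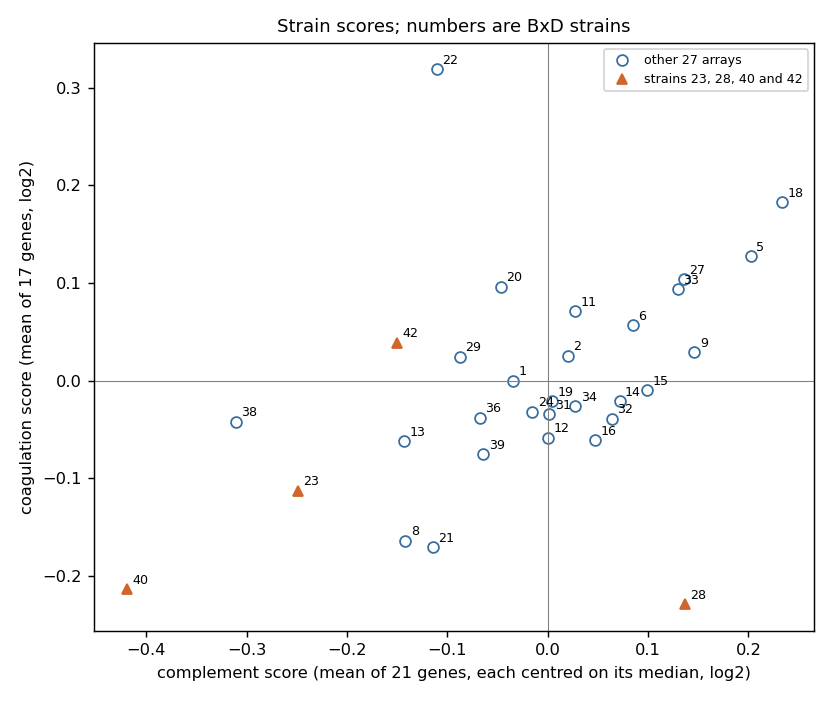
Strain scores of complement (horizontal) and coagulation (vertical), in log2 units; each point is 1 strain with its number, and triangles are strains 23, 28, 40 and 42. Strains 18 and 5 lie high in both, strain 40 low in both, and strains 22 and 28 lie off the diagonal.

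30 partner pairs, joined in a complex, in a step of a cascade or in a family, were measured. By permutation of the strains (100000 resamples, two-sided, Benjamini-Hochberg over the 30 pairs), 5 had a Pearson's r that passed. At an unadjusted p under 0.05, 26.7% of the partner pairs passed, close to the 22.5% of all 703 member pairs. With the adjustment made over the 703, 2 of the 30 passed. C4bp and Pros1, which circulate bound to each other in plasma, had r = 0.58 (permutation p = 0.00061, adjusted 0.0091) and rho = 0.53 (p = 0.0025), with r = 0.47 without strains 9 and 21, the farthest from the median. Strain 21 was lowest in both, and strains 9 and 2 were high in both. This pair alone passed in all 5 settings of r, with r between 0.57 and 0.66.

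The other 4 pairs did not pass in every setting. Masp1 and Masp2 had r = -0.58 (p = 0.00027, adjusted 0.0081; rho -0.59, p = 0.00071; -0.51 without strains 28 and 38), and -0.42 without the 4 arrays, where the pair did not pass. F2 and Plg, thrombin and plasmin zymogens, had r = -0.51 (p = 0.0038, adjusted 0.033; rho -0.61, p = 0.00034; -0.59 without strains 21 and 22). The r of this pair stayed between -0.50 and -0.51 in all 5 settings and its rho passed in each, while the adjusted p of r was 0.052 without the 4 arrays and 0.057 with place correction as well. F2 and F5, substrate and cofactor of prothrombinase, had r = 0.48 (p = 0.0064, adjusted 0.039; rho 0.50, p = 0.0050). Without strains 21 and 22 their r fell to 0.34. Without the 4 arrays the pair passed (r = 0.51, adjusted p = 0.049). After place correction r was 0.34 and did not pass (adjusted p = 0.16), while rho was 0.46 and passed (adjusted p = 0.045). By r the pair did not pass with both changes (0.43, adjusted p = 0.12). Nor did it with the first principal component removed (0.47, adjusted p = 0.054). C6 and C9 had r = 0.50 (p = 0.0044, adjusted 0.033), which rested on strains 38 and 39: without them r was 0.23, and rho was 0.39 (p = 0.029, adjusted 0.098). With limma's fit of every probe on the first gene, adjusted over all probes, the adjusted p was 0.0094 for Masp1 and Masp2 and 0.047 for C6 and C9. It was 0.17 for C4bp and Pros1, 0.18 for F2 and F5 and 0.090 for F2 and Plg, which did not pass. On Masp1, 15.5% of all probes passed this fit, and 0.055% without the 4 arrays, where Masp2 did not pass. On C6, 5.3% of all probes passed, while with C9 taken as the first gene 0 probes did.

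Of the 25 pairs that did not pass, several are chains of one protein. C1qa had r = -0.05 with C1qb and -0.10 with C1qc, and C1qb had -0.41 with C1qc (p = 0.023, adjusted 0.099). Without the 4 arrays these were -0.24, 0.07 and -0.26. No other gene lies between C1qb and C1qc, or between C1qa and C1qc, in the RefSeq order. C8b and C8g had r = 0.30 (adjusted p = 0.26) and 0.51 without the 4 arrays (adjusted p = 0.049). C8b lies at an every 8th place. After place correction r was 0.45 and did not pass (adjusted p = 0.097), while rho was 0.60 and passed (p = 0.00056, adjusted 0.0084). With both changes r was 0.51 (adjusted p = 0.057). Mbl1 and Mbl2 had 0.39 (adjusted p = 0.11), but passed without the 4 arrays (0.52, adjusted p = 0.049), after place correction (0.56, adjusted p = 0.0074) and with the first principal component removed (0.54, adjusted p = 0.028). With place correction and without the 4 arrays together, this pair did not pass (r = 0.50, adjusted p = 0.057; rho 0.40, adjusted 0.23). F5 and F10 went from 0.14 to 0.63 after place correction (adjusted p = 0.0074) and had 0.16 without the 4 arrays. After place correction their r was 0.36 without strains 23 and 40, and 0.25 without the 4 arrays (adjusted p = 0.59). Neighbouring genes were likewise low or moderate in r, with 0.02 for F11 and Klkb1, 0.34 for F7 and F10, 0.19 for Proz and F10 and 0.18 for C2 and Cfb (-0.03, 0.21, 0.19 and 0.05 without the 4 arrays). F8 and its carrier Vwf, as the mean of its probes, had 0.24, and 0.05 without the 4 arrays.

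**Figure D5:**
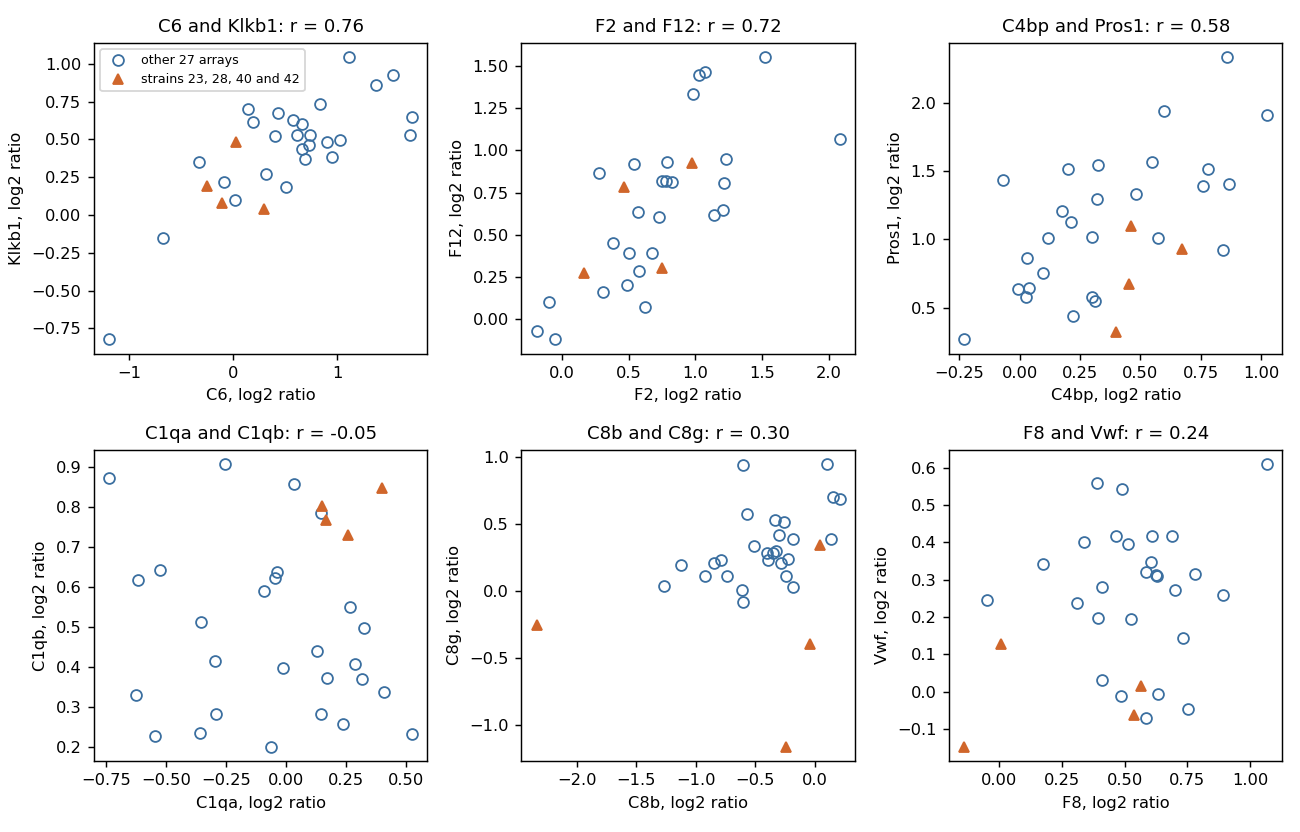
Log2 ratios of 6 gene pairs, 1 point per strain, with triangles for strains 23, 28, 40 and 42; the pairs were picked after their values were seen. The upper row shows the pairs with r = 0.76, 0.72 and 0.58, in which strains 38 and 39 are the low end for C6 and Klkb1; the lower row shows partners with r of -0.05, 0.30 and 0.24.

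A scan of all 703 member pairs, added after values were seen, found the highest correlations outside the partner pairs. By Pearson's r, 36 pairs passed (23 positive, 13 negative; Benjamini-Hochberg over the 703), 22 passed by rho and 14 by both. At an unadjusted p under 0.05 there were 158, or 22.5%, and among the 30 partner pairs 8. Of the 36, 4 lay within complement, 9 within coagulation and 23 between them. Without the 4 arrays 20 pairs passed, 14 of which were among the 36. The 36 make up 5.12% of the 703, and this test was not run over all gene pairs. As a background, an r of 0.5 or higher was reached by 3.44% of all gene pairs and 5.41% of member pairs. For an r of -0.5 or lower the shares were 3.14% and 2.28%. Without the 4 arrays they were 1.61% against 4.69%, and 1.48% against 2.28%.

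C6 and Klkb1 had r = 0.76 (p = 1e-05, the smallest that 100000 resamples give; adjusted 0.0070) and rho = 0.66 (p = 0.00011). Strains 38 and 39 were lowest in both genes, and without them r was 0.61. Without the 4 arrays, which do not include strains 38 and 39, r was 0.76. F2 and F12 had r = 0.72 (p = 5e-05, adjusted 0.0088) and rho = 0.73 (p = 5e-05), with 0.72 without strains 21 and 22 and again without the 4 arrays. Strains 21, 24 and 12 were low in both and strains 5, 15 and 11 high in both. C6 and Clu, as the mean of its probes, had r = 0.67 (p = 2e-05) and rho = 0.70 (p = 1e-05). With each probe counted separately, the highest r within complement was 0.64, so neither Clu probe alone reached 0.67. C2 and F7 had r = 0.62 (p = 0.00034) and rho = 0.65 (p = 0.00019). These 4 pairs also passed without the 4 arrays by r. The other pairs among the 14 that passed in both runs went both ways. Positive were C4bp with F2 and with Pros1, Mbl2 with F12, and Pros1 with F2 and with F5. Negative were C1qb with Proz, C1qc with F2 and with F9, F12 with Plg, and Pros1 with Proz. Masp1 and F3, by contrast, had r = 0.63 (p = 0.00032) but rho = 0.17 (p = 0.36), and r = 0.23 without the 4 arrays. F10 and Masp2 each had 7 of the 36 pairs. Without the 4 arrays they had none by the permutation test after adjustment, and 5 and 7 at an unadjusted p under 0.05. F3, F5 and F9 lie at every 8th places, and the scan is not given with place correction. In limma's fit on C1qc, F9 passed over all arrays and without the 4 arrays. After place correction it did not pass, with or without the 4 arrays. On F5, Pros1 passed only after place correction with all arrays.

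The pairs were set against all probes by fitting every probe on each member in turn with limma. On C6, 5.3% of 21764 probes passed, and so did 5 of 39 other member probes. These were Klkb1, Masp2, C9 and only 1 probe of Clu with a positive slope, and F3 with a negative one. On Klkb1, 1.29% of all probes and the same number of member probes passed. On F2, 1% of all probes passed, and the members were F12 and Pros1. Without the 4 arrays the shares of all probes were 2.78% on C6, 1.64% on Klkb1 and 2.75% on F2, with 2, 3 and 4 member probes.

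Of the 38 members, 20 were followed by at least 1% of all probes, and 7 of these 20 (C1qc, C6, F2, F3, F12, Klkb1 and Mbl2) still were without the 4 arrays. The 3 members with the most calls show the change. On F10, 29.2% of all probes and 14 member probes passed, and without the 4 arrays 0.023% of all probes and 0 members did (2507 probes and 4 members at an unadjusted p under 0.05 in limma). On Cfp, 26.1% of probes and 8 members passed, and without the 4 arrays 0% and 0 did (1876 probes and 2 members at an unadjusted p under 0.05 in limma). On F3, 19.1% of probes and 10 members passed, and without the 4 arrays 1.09% did, with Klkb1 as the remaining member.

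Probes of other genes were ranked by their correlation with each score over the 31 strains. Highest for complement was Reg2, a secreted regenerating-family lectin, with r = 0.87 (0.81 without the 4 arrays). Dpm3, Plekho1, 1700055C04Rik, Grin2d, Tmprss5, Gngt2, Sult2a8, Ess2 and Emc9 came next, down to 0.75. Highest for coagulation was Grk1 at 0.78, then Hpx, the plasma heme carrier hemopexin, at 0.77 (0.71 without the 4 arrays). Igkv4-53, Ndufb2, Eif2s3y, Rps10, Fbln7, Ctss, Rps29 and Igk-V23 came next, down to 0.72. Reg2, Emc9 and Igk-V23 lie at every 8th places. So do C8b, C9 and Mbl1 within the complement score, and F3, F5 and F9 within the coagulation score. Place-corrected correlations with the scores are not given here, and the part of place in these values was not tested. These values are a description and carry no test.

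Other genes of the pathways gave a more even split than the members. Of 24 further complement genes, 16 were measured by 18 probes, of which 8 were higher, 6 lower and 4 did not pass. C3ar1 and C5ar1, the receptors of the C3a and C5a fragments, had -1.0 and -0.59 at every 8th places (-0.43 and -0.01 after correction), Fcnb, a ficolin, had 0.49, and C1qbp, a mitochondrial protein that binds C1q, had 0.43. Of 30 further coagulation genes, 25 were measured by 1 probe each, with 10 higher, 9 lower and 6 not passing. Bdkrb2, Plat, Gp9 and Ggcx, all at every 8th places, had means between -0.83 and -0.64 that became -0.26 to -0.07 after correction. Lman1, which exports factors V and VIII from the endoplasmic reticulum, had 0.51 and its partner Mcfd2 -0.39. The fibrinogen chains had -0.12 for Fga, which passed, and 0.07 for Fgb and 0.10 for Fgg, which did not.

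Markers of liver cell types moved with some members. A score of 9 of 12 Kupffer cell and macrophage markers was lowest in strain 23 at -0.75 and highest in strain 27 at 0.32. It had r = 0.70 with the complement score and 0.45 with the coagulation score (0.49 and 0.37 without the 4 arrays). With single members it had 0.65 for Cfp, 0.63 for F8, 0.53 for Vwf, 0.39 for C1qc, -0.07 for C1qa and -0.55 for C1qb. Correlations of cell type scores with single members are over all arrays and were not taken without the 4. A score of 9 of 11 endothelial markers had r = 0.46 with complement (0.16 without the 4 arrays) and 0.12 with coagulation, and with single members 0.63 for C1qc, 0.49 for Cfp, 0.40 for Vwf, 0.35 for F8 and -0.51 for C1qb. A score of 4 of 5 bile duct markers had -0.49 with complement (-0.39 without the 4 arrays) and -0.20 with coagulation. A score of 4 of 6 adipocyte markers had r = -0.59 with complement and -0.48 with coagulation (-0.58 and -0.23 without the 4 arrays). The adipocyte score was highest in strain 40 at 0.69. A score of 3 of 6 red cell markers had 0.46 with complement and 0.52 with coagulation. A score of 8 of 10 hepatocyte markers had 0.05 and 0.38, and ranged from -0.34 in strain 39 to 0.41 in strain 9. The part of these cell types in the members' values was not tested. Of hepatocyte markers, Ttr and Apoa1 were higher at 0.62 and 0.56, Cps1 was lower at -0.86 and Alb at -0.16 did not pass, so hepatocyte markers lay on both sides of 0.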

How the data were processed

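Liver RNA of 31 BxD/TyJ strains was compared with a C57BL/6J pool on two-colour arrays. The authors deposited normalized log ratios, read here as log2. The submitters' processing notes name limma and R 2.0.0. The steps for background and normalization, like the log base, were not given in the sources used here. Every array held the same sorted values to within 0.000256, so all arrays had 1 distribution.

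Of 23040 features, 1275 were empty and 21765 were tested, without a filter on low values. The platform annotation gave 1 gene to 16642 of these, several to 134 and none to 4989, and names were updated by gene ID for 15964. All 40 member probes have values on every array, and none reached the limits of the distribution, -3.84 and 3.65.

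Panel means were tested with limma 3.58.1 in R 4.3.3 (lmFit, eBayes; Benjamini-Hochberg, threshold 0.05), tested on simulated data. Pairs used the mean of a gene's probes and 100000 permutations of strains. Alternatives left out strains 23, 28, 40 and 42, subtracted on each array the median of each of 8 places (identifiers with the same remainder after division by 8), removed the first principal component, or changed the test. Every measured member is named. Values over strains are given in detail for the 5 highest and 5 lowest means and the 5 largest SDs of each system, for Hc, for genes with more than 1 probe and for pairs that passed. The 10 most alike single-gene probes are named for each score, and the 6 other pathway genes with the largest absolute means are named. The members and lists were chosen with earlier results of these data known. Fcnb, C1qbp, Lman1, Mcfd2, the fibrinogen chains and the hepatocyte markers were named after their values were seen. With 1 array per strain, the spread over strains mixes strain differences with array error. The p-values of panel means concern a common offset of the strains from the shared reference. Those of pairs concern association across strains, and precision is limited by the 31 arrays.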

Additional observations from a re-analysis of the deposited data

How the results depend on the processing

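Counts of complement and coagulation probes that passed stayed within 1.5 times the reported counts in every alternative run. The correlation of the scores lay between 0.32 and 0.52, and the mean pairwise r between 0.052 and 0.095 within complement and between 0.042 and 0.083 within coagulation. Over all probes, 7229 passed (3187 higher, 4042 lower) when the mean had to exceed 0.2. Place correction, alone and together with leaving out strains 23, 28, 40 and 42, turned the direction of 4 probes that passed before or after it, all at every 8th places: C8b to 0.12 and 0.22, Mbl1 to 0.50 and 0.52, F5 to 0.51 and 0.58, and F9 to 0.087 and 0.16. C1ra, outside these places, went from 0.04 to -0.03 and -0.05 and did not pass in any of the 3. The number of partner pairs that passed was 5, 4 without the 4 arrays, 6 after place correction, 1 with both and 3 with the first principal component removed. The cause was not tested. No paired analysis was possible because the strains form 1 group. Each strain had 1 array, so no array's own error could be measured, and signal over background was not analysed here.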
